A study of Mus musculus with 10 samples.

Results

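Leptin and 9 further genes counted among the adipokines were followed in the interscapular brown fat (iBAT) of mice, a depot on the upper back that burns fuel for warmth. Lep was chosen by its measured difference between genotypes in these same 10 libraries, where it was lower in the knockout, and Adipoq, Retn, Cfd, Nampt, Rbp4, Apln, Nnat, Hp and Serpina3n were taken with it as genes of the same kind. These 10 genes were drawn from 54347 gene records, and all 10 passed the filter on low counts. The groups were 5 ΔGm15551 mice (replicates 1, 2, 4, 5 and 7) and 5 wild type mice (replicates 2, 3, 5, 6 and 7) of the C57BL/6N background, aged 12 weeks. All were housed alone at 4 °C for 24 h, so no value below comes from a mouse kept warm. ΔGm15551 mice carry a CRISPR/Cas9 deletion that includes exon 1 of the long noncoding RNA (lncRNA) gene Gm15551. The deletion is in the germline and so not limited to fat cells, and the mice were fed chow. The comparison asks whether loss of this lncRNA altered the iBAT transcriptome in the cold.

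Adipokines are proteins that fat cells release into the blood. Leptin tells the brain how full the fat stores are, and its gene is best known as a marker of white fat, where cold lowers it. Adiponectin sensitises liver and muscle to insulin, resistin opposes insulin in the mouse, and adipsin, the product of Cfd, is the protease that starts the alternative pathway of complement. The remaining genes encode an enzyme of NAD salvage that is also found outside cells (Nampt), the retinol carrier of plasma (Rbp4), the ligand of a vascular receptor (Apln), a small membrane protein from an imprinted gene (Nnat), the haemoglobin-binding protein haptoglobin (Hp) and a serine protease inhibitor (Serpina3n). Nnat is not known as a hormone and belongs to the group by its expression in fat.

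The stretches before the transcription start are shown for Lep, whose genotype difference led to this choice of genes, for Adipoq, with the smallest spread of the 10, and for Retn and Cfd, the pair with the largest r between mice, which did not pass the adjusted test. Each is the 250 bases before the start in RefSeq on GRCm38.p6, written 5′ to 3′ on the strand of the gene, and capitals mark letters of a searched motif. Lep is chr6:29059971-29060220 on the plus strand, Adipoq chr16:23146286-23146535 on the plus strand, Retn chr8:3655520-3655769 on the plus strand and Cfd chr10:79890603-79890852 on the plus strand.
Lep: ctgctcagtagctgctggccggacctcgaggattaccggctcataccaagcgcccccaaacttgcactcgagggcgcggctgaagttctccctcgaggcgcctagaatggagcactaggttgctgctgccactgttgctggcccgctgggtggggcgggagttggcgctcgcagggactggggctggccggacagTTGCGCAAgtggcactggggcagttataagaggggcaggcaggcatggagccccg
Adipoq: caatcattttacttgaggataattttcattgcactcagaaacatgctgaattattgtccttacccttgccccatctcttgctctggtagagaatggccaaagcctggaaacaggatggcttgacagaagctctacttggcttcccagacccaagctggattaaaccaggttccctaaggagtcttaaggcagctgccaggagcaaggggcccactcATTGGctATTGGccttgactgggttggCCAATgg
Retn: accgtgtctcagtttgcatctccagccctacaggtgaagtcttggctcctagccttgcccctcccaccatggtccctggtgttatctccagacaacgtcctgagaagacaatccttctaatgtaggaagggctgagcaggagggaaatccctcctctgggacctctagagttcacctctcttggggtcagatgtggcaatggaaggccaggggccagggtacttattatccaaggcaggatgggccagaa
Cfd: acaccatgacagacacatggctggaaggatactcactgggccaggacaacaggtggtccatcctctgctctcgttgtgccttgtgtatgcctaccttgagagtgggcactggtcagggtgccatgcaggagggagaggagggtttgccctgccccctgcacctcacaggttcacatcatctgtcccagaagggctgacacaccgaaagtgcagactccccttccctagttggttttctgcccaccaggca

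Both strands were searched for TTGCGCAA, a palindrome bound by C/EBP factors, CCAAT, the TATA box TATAAA, the E-box CACGTG and the direct repeat 1 element bound by PPARγ with RXR, and the motifs do not overlap one another. The Lep sequence held TTGCGCAA from 55 to 48 bases before the start, a run found in 0.164% of 32851 promoter stretches of the same length. The Adipoq sequence held CCAAT at 34 to 30 and 27 to 23 bases before the start on the opposite strand, where it reads ATTGG, and at 7 to 3 bases on the strand of the gene. CCAAT was present in 33.85% of all stretches. The Retn and Cfd sequences held no match. Of the 10 genes, 9 had an entry, with 10 stretches in all because Rbp4 had a pair of starts. One of these held CCAAT and the other TATAAA from 28 to 23 bases before the start, and TATAAA was present in 12.368% of all stretches. CACGTG (6.021% of all stretches) and the direct repeat 1 element (0.033%) were in none of the 10. A match describes these letters only.

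The libraries held 9680976 to 15771170 estimated counts per mouse. Gm15551 had 0 counts in all 5 ΔGm15551 mice, where a count of 0 allows at most 0.208 to 0.238 CPM (the count scaled to a common library total) per library, and 1, 2, 6, 7 and 0 counts in wild type replicates 2, 3, 5, 6 and 7, so that replicate 7 gave no check of its label. All 10 brown adipocyte markers were counted in every mouse, and Ucp1, the uncoupling protein of brown fat, lay between 5837 and 11133 CPM. Of 9 neutrophil markers, none passed the filter and Camp was at 0 throughout, and the summed level was 0.216 to 0.831 CPM in ΔGm15551 and 0.576 to 1.01 CPM in wild type. The 8 hepatocyte markers, Alb included, summed to 4.35 to 7.23 CPM in ΔGm15551 and 4.61 to 8.16 CPM in wild type. Skeletal muscle markers differed far more between libraries, from a sum of 1.22 to 1959 CPM in ΔGm15551 and 1.39 to 3116 CPM in wild type, and were highest in ΔGm15551 replicates 1 and 4 and wild type replicate 7. The mouse numbers of wild type replicates 5, 6 and 7 belong to a separate, higher series that holds no ΔGm15551 mouse. For these 3 mice, genotype and number series cannot be told apart, and the log2FC of each of the 10 genes is also given without them.

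Lep transcript levels, scaled by TMM as for all CPM values of the 10 genes, were 5.94, 8.81, 4.91, 3.60 and 2.54 CPM in ΔGm15551 replicates 1, 2, 4, 5 and 7. They were 8.24, 11.0, 11.6, 18.3 and 7.50 CPM in wild type replicates 2, 3, 5, 6 and 7. The groups overlapped only through ΔGm15551 replicate 2, which lay above wild type replicates 2 and 7, while the other 4 ΔGm15551 mice were below every wild type mouse. Across all genes, 1.14% had 4 or 5 of the ΔGm15551 mice under the lowest wild type mouse. The means were 5.16 ± 2.41 and 11.3 ± 4.27 CPM (SD, n = 5 each), a log2 fold change (log2FC, ΔGm15551 minus wild type) of -1.14 (SE 0.31). In linear terms the ΔGm15551 level was 0.455 of the wild type level. No test and no confidence interval are given here for Lep, since this very difference chose it. In bulk tissue, fewer Lep-expressing cells and less Lep RNA per cell cannot be told apart.

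The Lep difference kept its sign under all 22 alternative settings and ranged from -1.42 to -0.87 on the log2 scale. Leaving out ΔGm15551 replicate 2, the highest knockout mouse, gave -1.42, and leaving out wild type replicate 6, the highest mouse of all, gave -0.89. Without wild type replicates 5, 6 and 7 it was also -0.89, and without the 3 libraries richest in muscle markers it was -1.30. Lep rested on few reads, 34 to 124 counts per ΔGm15551 library and 73 to 281 per wild type library. The gene (ENSMUSG00000059201.12, chr6:29060220-29073877 on the plus strand of GRCm38, protein coding, 3 exons in its longest transcript) overlapped no other gene, and none of its 31-base words was found in another gene.

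**Figure D1:**
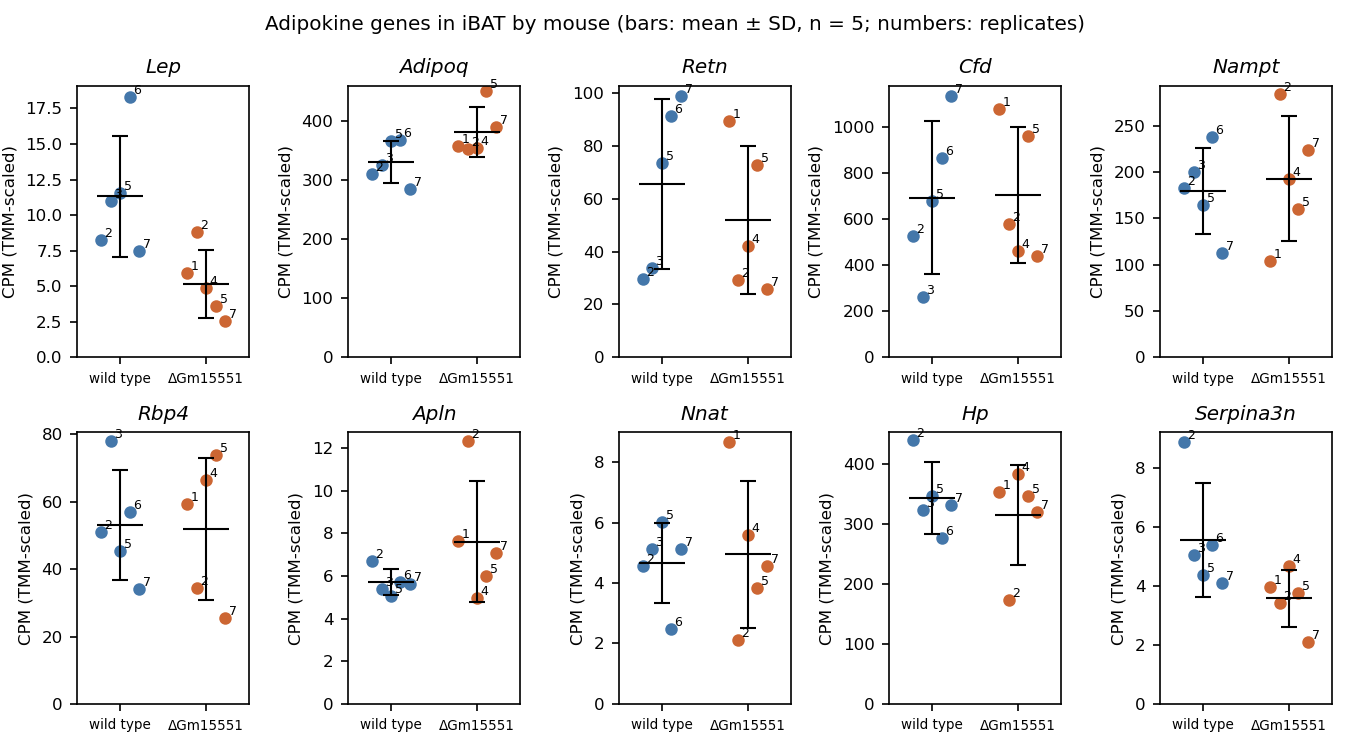
Level of each adipokine gene in CPM (vertical axes, from 0) in 5 wild type (blue) and 5 ΔGm15551 mice (orange), with replicate numbers beside the points and black bars for mean ± SD. In the Lep panel 4 of the 5 ΔGm15551 points lie under all wild type points, while in every panel the groups overlap.

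None of the other 9 genes passed the threshold between genotypes. At an adjusted p under 0.05, 0 of these 9 were called, against 0% of all 13733 genes (edgeR quasi-likelihood test, Benjamini-Hochberg over all genes; 220 genes, 1.6%, had an unadjusted p under 0.05, 229 by DESeq2 and 238 by limma-voom, which also called 0). One of the 9, Serpina3n, had an unadjusted p under 0.05. This count was 0 without wild type replicate 2 or without ΔGm15551 replicate 7, and 2, with Apln, without ΔGm15551 replicate 4, with no filter on low counts or without the 3 libraries richest in muscle markers. The log2FC was above 0 for 5 and below 0 for 4, with a median of 0.02 beside -0.001 over all genes. Groups overlapped for all 10 genes, where 0.226% of all genes had every ΔGm15551 mouse above and 0.0947% every ΔGm15551 mouse below all wild type mice. For 7 of the 9 genes other than Lep, the 95% confidence interval of the log2FC lay within -1 and 1. This held for 90.2% of all genes, and the exceptions among the 9 were Retn and Serpina3n. All adjusted p-values in the following paragraphs are 0.99998 in edgeR's quasi-likelihood test unless given.

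Adiponectin had the narrowest spread. Adipoq (ENSMUSG00000022878.5, chr16:23146536-23158028, plus strand) was at 357, 352, 355, 450 and 389 CPM in ΔGm15551 replicates 1, 2, 4, 5 and 7 and at 309, 326, 365, 367 and 284 CPM in wild type replicates 2, 3, 5, 6 and 7. Only ΔGm15551 replicates 5 and 7 lay above all wild type mice, and no ΔGm15551 mouse lay below 352 CPM. The means of 381 ± 41.9 and 330 ± 36.0 CPM gave a log2FC of 0.20 (SE 0.12, interval -0.05 to 0.46, unadjusted p = 0.109). The value was 0.26 without wild type replicates 5, 6 and 7 and stayed between 0.13 and 0.31 under all 22 alternatives, so Adipoq and Lep kept opposite signs in each, though the difference between the 2 genes was not tested.

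Resistin and adipsin had the largest biological coefficients of variation of the 10 genes, the spread within genotype beyond counting error. Retn (ENSMUSG00000012705.16, chr8:3655770-3660110, plus strand) was at 89.1, 29.4, 42.1, 72.9 and 26.0 CPM in ΔGm15551 replicates 1, 2, 4, 5 and 7 and at 29.5, 33.9, 73.6, 91.3 and 98.8 CPM in wild type replicates 2, 3, 5, 6 and 7. Both groups thus held mice near 30 CPM and mice over 70 CPM. The log2FC was -0.33 (SE 0.44, interval -1.31 to 0.64, unadjusted p = 0.465). Cfd (ENSMUSG00000061780.6, chr10:79890853-79892655, plus strand) was at 1076, 577, 463, 959 and 438 CPM in ΔGm15551 and at 525, 262, 680, 864 and 1133 CPM in wild type, in the same order of replicates. Its means were nearly equal, 703 ± 295 and 693 ± 331 CPM, with a log2FC of 0.02 (SE 0.37, interval -0.78 to 0.82, unadjusted p = 0.956). Wild type replicates 5, 6 and 7, whose mouse numbers are the higher ones, held the 3 highest wild type values of both genes. Leaving out 1 mouse at a time gave -0.62 to -0.14 for Retn. Without all 3 the log2FC was 0.72 for Retn, the opposite sign, and 0.84 for Cfd, and neither passed the test. Among the words of 31 bases in the Retn transcripts, 3.23% occurred in other gene records, and no such word was found for Cfd.

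Nampt, Rbp4 and Hp, plasma or intracellular proteins rather than hormones of fat alone, did not pass the test. Nampt (chr12:32819545-32853349, plus strand) ranged from 104 to 284 CPM in ΔGm15551 (median 192) and from 113 to 238 CPM in wild type (median 182), with a log2FC of 0.10 (SE 0.25, unadjusted p = 0.682). Rbp4 (chr19:38116629-38125281, minus strand) ranged from 25.4 to 73.9 CPM in ΔGm15551 and from 34.0 to 77.9 CPM in wild type, with a log2FC of -0.03 (SE 0.29, unadjusted p = 0.914). Hp (chr8:109575128-109579172, minus strand) was at 354, 173, 384, 346 and 319 CPM in ΔGm15551 replicates 1, 2, 4, 5 and 7 and between 277 and 439 CPM in wild type, with a log2FC of -0.12 (SE 0.20, unadjusted p = 0.539). ΔGm15551 replicate 2 was the lowest of all mice for Hp and the highest of all for Nampt. Without it the log2FC was 0.03 for Hp and -0.08 for Nampt, both of the opposite sign. Without wild type replicates 5, 6 and 7 it was 0.01 for Nampt, -0.31 for Rbp4 and -0.27 for Hp. Nampt is overlapped by Gdap10 on the same strand, without an overlap of exons.

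Apelin, whose receptor sits on blood vessels, was at 7.63, 12.4, 4.99, 5.98 and 7.09 CPM in ΔGm15551 replicates 1, 2, 4, 5 and 7 and at 6.72, 5.40, 5.08, 5.73 and 5.65 CPM in wild type replicates 2, 3, 5, 6 and 7. Apln (chrX:48025146-48034853, minus strand) thus spread little in wild type, while ΔGm15551 mice lay on both sides of them. The log2FC was 0.42 (SE 0.22, interval -0.05 to 0.88, unadjusted p = 0.0779), and it was 0.17 without ΔGm15551 replicate 2 and 0.33 without wild type replicates 5, 6 and 7. Nnat (chr2:157560078-157562522, plus strand) ranged from 2.13 to 8.66 CPM in ΔGm15551 and from 2.47 to 6.01 CPM in wild type, with a log2FC of 0.09 (SE 0.33, unadjusted p = 0.787), or 0.03 without those 3 wild type mice. Nnat lies within Blcap, which is on the opposite strand, and shares exonic sequence with Gm23134, so its counts are uncertain where the counting did not use strand.

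Serpina3n had the largest difference of the 9. It was at 3.96, 3.41, 4.69, 3.76 and 2.09 CPM in ΔGm15551 replicates 1, 2, 4, 5 and 7 and at 8.87, 5.05, 4.36, 5.40 and 4.11 CPM in wild type replicates 2, 3, 5, 6 and 7. As for Lep, 4 of the 5 ΔGm15551 mice were below all wild type mice, here with replicate 4 as the exception. The log2FC was -0.63 (SE 0.25, interval -1.17 to -0.09, unadjusted p = 0.0256, adjusted p = 0.99998, edgeR). Wild type replicate 2 stood apart, and without it the log2FC was -0.40. Without wild type replicates 5, 6 and 7 it was -0.95. The gene (ENSMUSG00000021091.8, chr12:104406729-104414329, plus strand) shared 21.6% of its 31-base words with 13 other gene records, Serpina3f, Serpina3g and Serpina3c among them, so reads may have been divided between these copies and its level is uncertain.

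**Figure D2:**
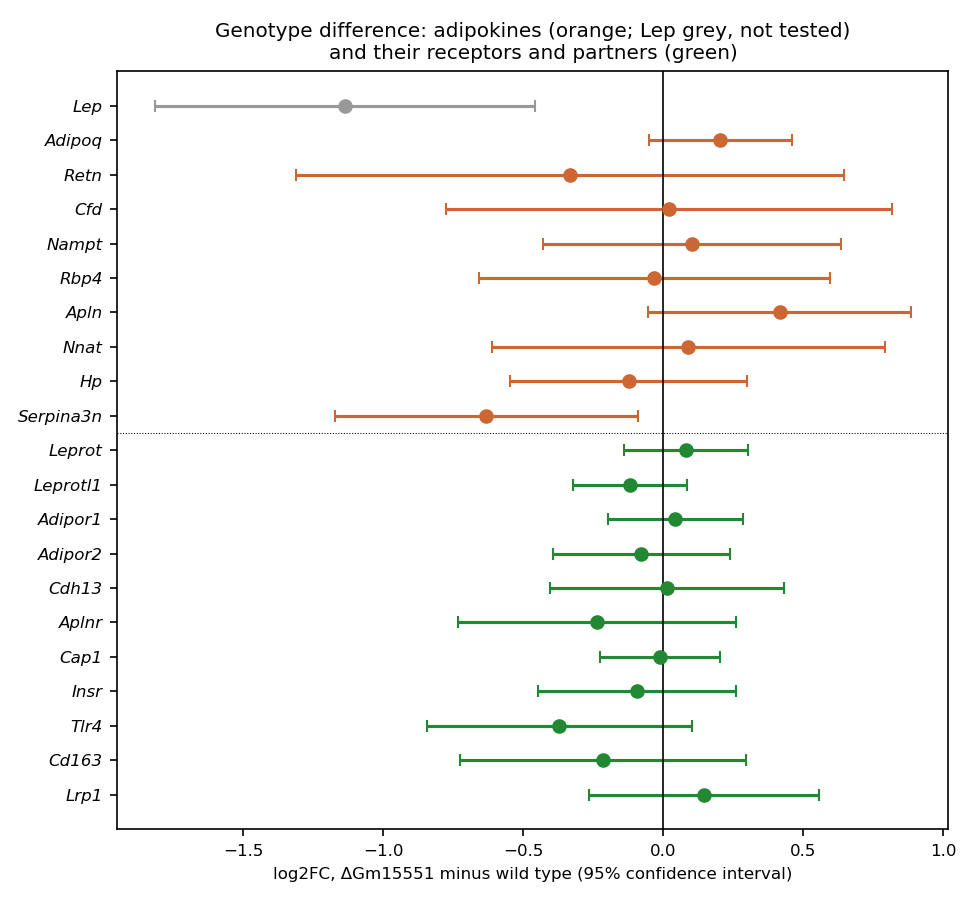
log2FC between genotypes (horizontal axis, ΔGm15551 minus wild type) with its 95% confidence interval for the 10 adipokine genes and, in green, 11 receptors and partners. Lep, in grey, stands at -1.14 as a description with no test, and its bar makes no allowance for its choice by this very difference. Among the tested genes shown, the interval of Serpina3n at -0.63 leaves out 0 and the others include it.

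Between-mouse spread was wide for these genes as a group. The biological coefficient of variation was 0.477 for Retn, 0.401 for Cfd, 0.361 for Nnat, 0.348 for Lep and 0.324 for Rbp4, against a median of 0.193 over all genes. It lay above the median for 9 of the 10 and above the 80th percentile for 7. Adipoq was the exception with 0.152, at the 20.4th percentile. From the lowest to the highest of the 10 mice, the level differed 7.21-fold for Lep, genotype difference included, 4.33-fold for Cfd, 4.25-fold for Serpina3n, 4.06-fold for Nnat, 3.81-fold for Retn and 3.06-fold for Rbp4. It differed 2.73-fold for Nampt, 2.54-fold for Hp, 2.48-fold for Apln and 1.59-fold for Adipoq.

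Per kilobase of the longest transcript, Cfd had the highest level of the 10 genes, 757 ± 321 CPM per kb (SD, n = 10 mice), above 99.5% of the genes tested. Adipoq followed at 275 ± 35.1, Hp at 245 ± 51.7, Retn at 51.5 ± 25.7, Rbp4 at 45.2 ± 15.2 and Nampt at 41.1 ± 12.1 CPM per kb. The other 4 were far lower, with Nnat at 3.32 ± 1.28, Lep at 2.53 ± 1.41, Serpina3n at 2.21 ± 0.857 and Apln at 2.12 ± 0.693 CPM per kb. Lep was thus in the lower part of the iBAT transcriptome in the cold, above 37.7% of the genes tested. Of the neighbours in this order, only Hp and Retn and only Nampt and Nnat were fully separated over the mice, and all other neighbours overlapped. Within a mouse, Cfd exceeded Adipoq in 10 of 10, whereas Lep exceeded Serpina3n in only 5 of 10. With the median transcript length instead, 6 of the 10 kept their place, as Hp and Adipoq changed places and Nampt moved ahead of Rbp4 and Retn. Together the 10 genes held 0.120% to 0.215% of the counts of a library.

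**Figure D3:**
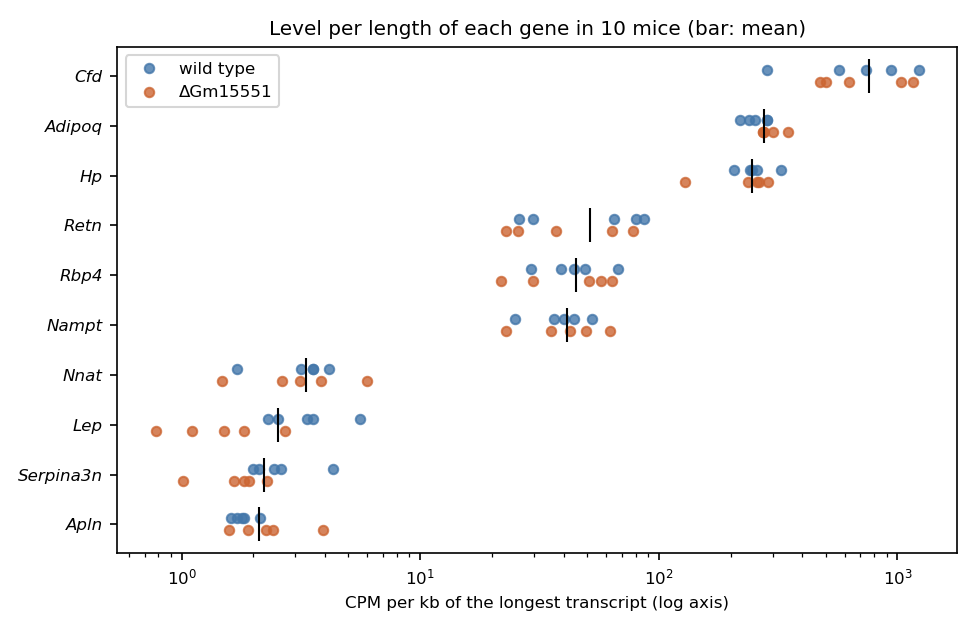
Level of the 10 genes in CPM per kb of the longest transcript (horizontal log axis) in wild type (blue) and ΔGm15551 (orange) mice, with a black bar at the mean of 10 mice. Cfd, Adipoq and Hp lie above 100 CPM per kb in every mouse, and Nnat, Lep, Serpina3n and Apln lie below 10 in every mouse.

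Covariation was measured over the 10 mice on log2 CPM centred within genotype, by exact permutation of mice within genotype, two-sided, with Benjamini-Hochberg adjustment over 45 pairs of genes. At an adjusted p under 0.05 there were 0 pairs, by Pearson's r and by Spearman's rho, with 3 and 1 at an unadjusted p under 0.05. Retn and Cfd came closest, with r = 0.862 (exact permutation p = 0.00479, adjusted p = 0.216) and rho = 0.879 (adjusted p = 0.163). The 2 genes deviated in the same direction in 10 of 10 mice, and r was 0.917 without the 2 mice farthest from the median of Retn. In the 7 mice left without the higher number series, r was 0.732 (adjusted p = 0.777, exact permutation). Nampt and Nnat gave r = -0.777 (exact permutation p = 0.0224, adjusted p = 0.503) and rho = -0.648 (adjusted p = 0.624). Nnat and Hp gave r = 0.744 (exact permutation p = 0.0397, adjusted p = 0.587) and rho = 0.479 (adjusted p = 0.969), a relation that rested on ΔGm15551 replicate 2 and wild type replicate 6, since r was -0.01 without them.

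None of the pairs with Lep passed the threshold. Its r with them ran from -0.63 for Hp to 0.42 for Apln, with adjusted p of 0.587 or more (exact permutation). Among 9562 protein-coding genes with a mean of 5 CPM or more, those with the largest r with Lep over the 10 mice were Cend1 (0.934), Zfp870 (0.902), Jkamp (0.893), Hfe (0.885) and Prnp (0.873), each at an adjusted p of 0.808 (exact permutation). These are the top of a long search and are given as a description.

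**Figure D4:**
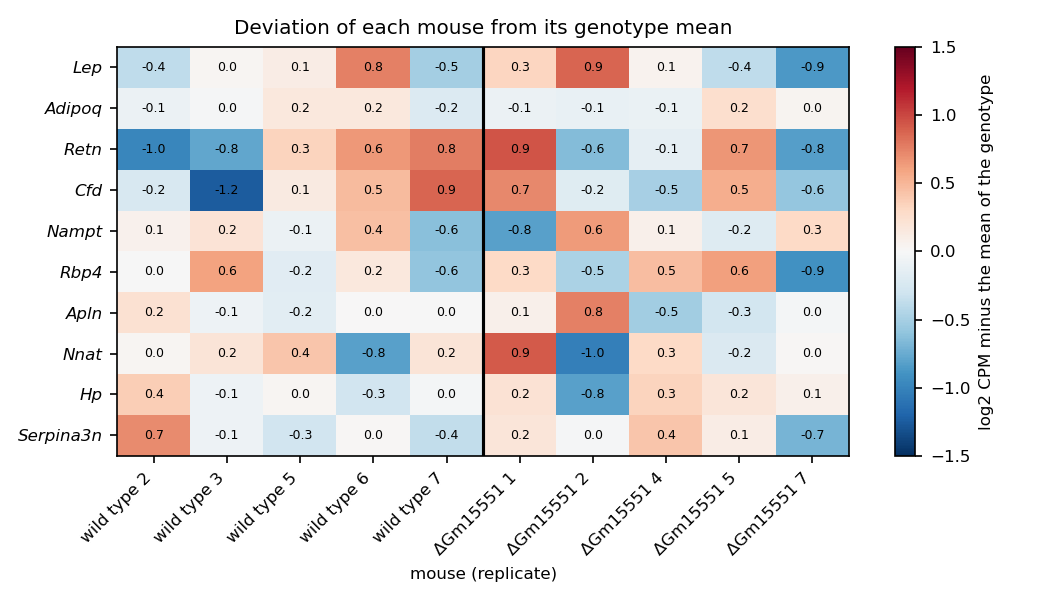
Deviation of each mouse (columns) from the mean of its genotype in log2 CPM for the 10 genes (rows), red above and blue below the mean. The rows of Retn and Cfd have the same sign in all 10 mice, whereas ΔGm15551 replicate 2 is high for Lep, Nampt and Apln and low for Nnat and Hp.

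Among the receptors and binding partners of these hormones, no gene passed the threshold. Of 14 listed, 11 were tested and 0 were called in either direction, beside 0% of all 13733 genes. The median log2FC was -0.08, beside -0.001 over all genes. The adiponectin receptors Adipor1 and Adipor2 were at 162 ± 17.7 and 605 ± 82.4 CPM in ΔGm15551 and at 157 ± 13.4 and 639 ± 108 CPM in wild type, with log2FC of 0.04 (SE 0.11) and -0.08 (SE 0.15). The leptin receptor Lepr had only 2 to 10 counts per library, and Stra6, the cell-surface receptor for Rbp4, had 0 to 2, so both fell under the filter and no difference is given. Aplnr, the apelin receptor, had a log2FC of -0.24 (SE 0.23), Insr, the insulin receptor, -0.09 (SE 0.16), and Cap1, a reported receptor of resistin, -0.01 (SE 0.10).

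Among 27 other secreted proteins of fat, 15 were tested and 0 passed the threshold, beside 0% of all genes, with a median log2FC of 0.04. At an unadjusted p under 0.05, 2 were higher and 0 lower, where 0.961% of all genes were higher and 0.641% lower at that level. Angptl4, an inhibitor of lipoprotein lipase, was at 151, 137, 128, 173 and 107 CPM in ΔGm15551 replicates 1, 2, 4, 5 and 7 and at 124, 78.5, 91.2, 97.6 and 116 CPM in wild type replicates 2, 3, 5, 6 and 7. Only ΔGm15551 replicate 7 lay within the wild type range. Its log2FC was 0.45 (SE 0.16, unadjusted p = 0.0117, adjusted p = 0.99998, edgeR). C1qtnf1, a relative of adiponectin, had 8.12 ± 0.822 against 6.35 ± 1.01 CPM and a log2FC of 0.35 (SE 0.14, unadjusted p = 0.0289, adjusted p = 0.99998, edgeR). Over the 22 alternatives the log2FC ran from 0.31 to 0.54 for Angptl4 and from 0.15 to 0.52 for C1qtnf1, lowest in the 6 mice with shared replicate numbers, and the unadjusted p was under 0.05 in 19 and 16 of them. Another 12 of the list were under the filter, among them Lcn2, Tnf and Il6, with at most 15 counts in any library.

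The pathways on which the 10 genes act had 0 calls as well. Since 0% of all 13733 genes were called, this is no result about these pathways. Of 9 complement genes tested of 12, none had an unadjusted p under 0.05, beside 1.6% of all genes, and the median log2FC was 0.08. Cfb, which encodes the substrate of adipsin, had the smallest p of them, with a log2FC of -0.35 (SE 0.21, unadjusted p = 0.123). In NAD metabolism, 14 of 18 genes were tested with a median of 0.05, and Sirt3, a mitochondrial deacetylase that uses NAD, led with 0.11 (SE 0.11, unadjusted p = 0.333). Of 9 genes for folding and assembly of adiponectin, 8 were tested with a median of -0.05, and the endoplasmic reticulum chaperone Hspa5 led with -0.15 (SE 0.15, unadjusted p = 0.329). All 17 regulators of these genes were tested with a median of 0.06. Srebf1, a factor that drives fatty acid synthesis, led with 239 ± 43.7 CPM in ΔGm15551 against 297 ± 55.8 CPM in wild type, a log2FC of -0.31 (SE 0.16, unadjusted p = 0.0651). Wild type replicate 5 stood apart at 396 CPM, while the other wild type mice lay between 261 and 280 CPM and ΔGm15551 mice between 184 and 306 CPM.

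Because Lep is better known from white fat, 11 further markers of white adipocytes were read beside it. Of these, 7 were tested and 0 were called, beside 0% of all genes. Of the 7, 6 had a log2FC below 0 where 49.7% of all genes were above 0, and the median was -0.25. At an unadjusted p under 0.05, 2 were lower, as were 0.641% of all genes, Hoxc8, a developmental transcription factor, and Wfdc21, a small secreted protein. Hoxc8 was at 9.76, 1.92, 6.40, 6.67 and 3.88 CPM in ΔGm15551 replicates 1, 2, 4, 5 and 7 and between 6.63 and 12.6 CPM in wild type, a log2FC of -0.75 (SE 0.34, unadjusted p = 0.0468, adjusted p = 0.99998, edgeR). ΔGm15551 replicate 2, which had the highest Lep of its group, had the lowest Hoxc8 of all mice. The Hoxc8 log2FC ran from -1.16 to -0.53 over the 22 alternatives, -0.53 being without that mouse, with an unadjusted p under 0.05 in 11. Wfdc21 was at 1.03, 0.7104, 0.819, 0.537 and 0.373 CPM in ΔGm15551 replicates 1, 2, 4, 5 and 7 and at 1.07, 1.54, 1.07, 1.24 and 1.44 CPM in wild type replicates 2, 3, 5, 6 and 7. All 5 ΔGm15551 mice lay below all wild type mice, as for 0.0947% of all genes. Counts were only 5 to 14 per ΔGm15551 library and 12 to 19 per wild type library. The gene thus passed the filter on low counts through the wild type mice, where it is high, so its separation is a description only. Wfdc21 had a log2FC of -0.86 (SE 0.29, unadjusted p = 0.0120, adjusted p = 0.99998, edgeR), to which the same limit applies. The summed level of the 11 markers was 206 to 379 CPM in ΔGm15551 and 157 to 427 CPM in wild type, and Tcf21 was at 0 in every mouse. Their part in the Lep difference was not tested.

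Markers of other cells were read in the same way, with 0 calls in each list, beside 0% of all genes. The median log2FC was 0.03 over 10 brown adipocyte and -0.02 over 8 common adipocyte genes, -0.27 over 10 skeletal muscle genes, 0.05 over 3 hepatocyte genes and -0.11 over 3 nerve genes. At an unadjusted p under 0.05, 2 brown adipocyte genes were higher, Adrb3 (log2FC 0.50) and Zic1 (0.84), beside 0.961% of all genes. Both are named here after their values were seen. Adrb3 was at 158 to 234 CPM in ΔGm15551 and 123 to 157 CPM in wild type, without overlap, as for 0.226% of all genes. Zic1 overlapped, at 6.90 to 23.3 CPM in ΔGm15551 and 5.24 to 9.58 CPM in wild type. The median was -0.11 over 6 macrophage genes, all below 0, and 0.13 over 7 endothelial genes, all above 0, beside 49.7% of all genes above 0. The summed level was 36.8 to 71.1 CPM in ΔGm15551 and 42.3 to 79.7 CPM in wild type for macrophages, and 839 to 1437 and 750 to 1332 CPM for endothelium. With a muscle score as a covariate the Lep log2FC was -1.10 and that of Serpina3n -0.65.

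**Figure D5:**
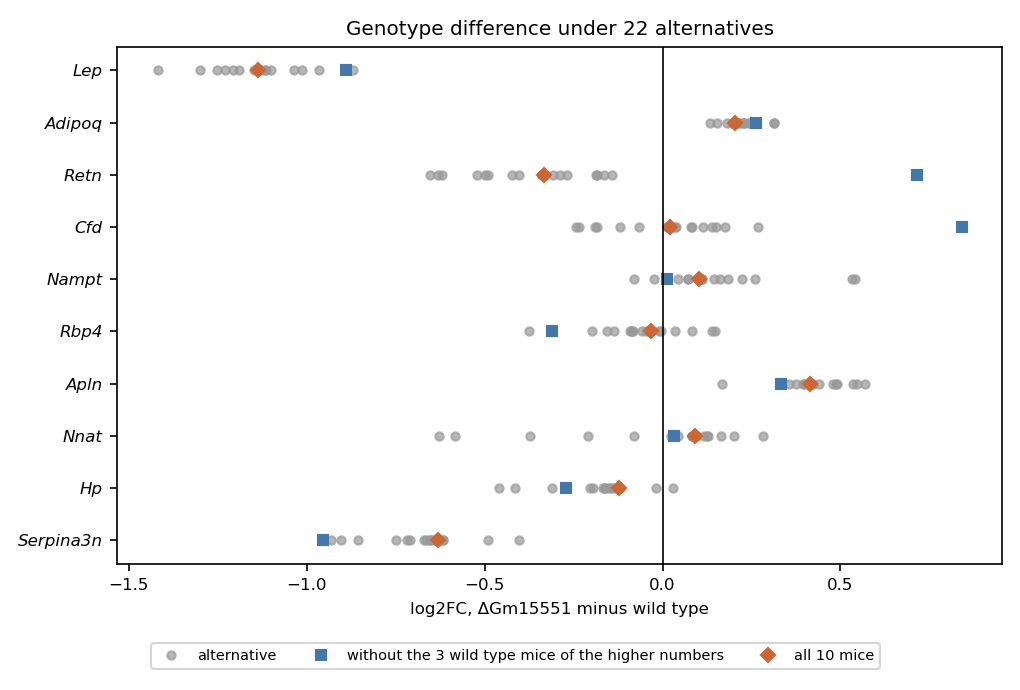
log2FC (horizontal axis, ΔGm15551 minus wild type) of each adipokine gene with all 10 mice (orange diamonds), under 22 alternatives (grey points) and, as one of these, without wild type replicates 5, 6 and 7 (blue squares). Lep, Apln, Adipoq and Serpina3n stay on their side of 0 throughout, whereas Retn and Cfd move to 0.72 and 0.84 without those mice.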

How the data were processed

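Poly A RNA from iBAT of 5 ΔGm15551 and 5 wild type mice was sequenced in paired-end reads of 50 bases on a NovaSeq instrument from NEBNext Ultra II libraries. Quality filtering by the authors used cutadapt, and quantification used salmon with Gencode M22 or M22 joined with RNAcentral on GRCm38, and versions are not given in the sources used here. The values deposited by the authors were estimated counts (expected counts) per gene, whole numbers without scaling to depth. How transcripts were summed to genes and whether strand was used are not stated. Each of the 10 columns carried the title of 1 mouse.

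Genes were kept by filterByExpr (minimum count 10, minimum total count 15), with Gm15551 kept as the target, which left 13733. edgeR 4.0.16 in R 4.3.3 was run with TMM scaling and a robust quasi-likelihood model of genotype, with Benjamini-Hochberg adjustment over all genes. log2 CPM had a prior count of 2. Marker sums, Gm15551 and Ucp1 in the opening used library totals. Floors of 3 counts cover counting error only. The 20 pairs of libraries within groups differed by more than counting noise (chi-square per degree of freedom of at least 12.6). The labels give mice, not litters, as replicates. Gene models and 31-base words came from GENCODE M21, which held 99.5% of the gene IDs.

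Alternatives were DESeq2 1.42.0 (size factors and Wald test), limma-voom (limma 3.58.1), library totals, other filters, a non-robust fit, each mouse left out, the replicate number as a block, and leaving out the higher number series. A muscle score as covariate was also planned, and leaving out the 3 libraries richest in muscle markers was chosen after seeing the data. The fit was tested on simulated data. The genes and lists were chosen with earlier results of these data known. Genes named were the 10 adipokine genes, Gm15551 and 7 receptors. In each related list those at an unadjusted p under 0.05 were named, or else the one with the smallest p. The 5 genes most like Lep and 4 tissue checks completed the rule, and gene names used only as examples fall outside it.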

Additional observations from a re-analysis of the deposited data

Results flagged for a closer look

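The CPM values of 37 genes, those of the naming rule with Adrb3 and Zic1, were searched by genotype for a mouse that stood apart, in 73 groups of 5 mice. The group with all values at 0, Gm15551 in ΔGm15551, could not be searched. In 5 groups the gap of a mouse to its nearest neighbour was more than 0.71 of the range of the group, where chance gives about 1 in 20 groups, or 3.65. Serpina3n was 8.87 CPM in wild type replicate 2, the highest of its group, while the other 4 lay between 4.11 and 5.40 CPM (gap over range 0.728). Lepr was 0.895 CPM in the same mouse, on 10 counts, while the others lay between 0.205 and 0.286 CPM (0.883). Ucp1 was 6436 CPM in wild type replicate 7, the lowest of its group, while the others lay between 8266 and 9007 CPM (0.712). The muscle actin gene Acta1 was 499.9 CPM in that mouse, the highest of its group, while the others lay between 0 and 37.1 CPM (0.926). Srebf1 was 396 CPM in wild type replicate 5, the highest of its group, while the others lay between 261 and 280 CPM (0.856).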

How the results depend on the processing

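The count of calls at an adjusted p under 0.05 was 0 for the 9 genes other than Lep and for the related lists under all 22 alternatives, and 0 of 45 pairs passed under all 14 run for covariation. The signs of Lep, Adipoq, Apln and Serpina3n were the same under all 22. Over the fits that leave out 1 mouse each, the log2FC ran from -0.19 to 0.27 for Cfd, from -0.21 to 0.28 for Nnat, from -0.079 to 0.26 for Nampt, from -0.20 to 0.15 for Rbp4 and from -0.20 to 0.030 for Hp, each across 0, and from -0.62 to -0.14 for Retn. Without wild type replicates 5, 6 and 7 Retn was 0.72, and without the 3 libraries richest in muscle markers Nnat was -0.37. The cause was not tested. With the median transcript length, 6 of 10 genes kept their place in the order of levels. Low counts, at most 10 in any library, kept Lepr and Stra6 out of the test.

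Replicate numbers 2, 5 and 7 occur in both groups, but the deviations of same-numbered mice correlated at -0.149, 0.0674 and -0.595. No mouse of these matched its own number best. These values gave no sign of pairing by number, but so few mice cannot settle whether the numbers pair them. With the replicate number as a block in these 6 mice the log2FC was -1.01 for Lep, -0.23 for Cfd, -0.63 for Nnat, 0.53 for Nampt, -0.46 for Hp, -0.63 for Retn, 0.31 for Adipoq, 0.49 for Apln, -0.09 for Rbp4 and -0.86 for Serpina3n, and without the block in the same mice it was -0.87 for Lep, -0.24 for Cfd, -0.58 for Nnat and 0.034 for Rbp4. The block changed no call.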
